A study of Mus musculus with 18 samples.

Results

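Kctd12b, Kctd12, Kctd1 and Kctd15 are members of the KCTD (potassium channel tetramerisation domain) gene family, and their expression was described across mammary tumours of mice with and without the transcription factor Snai2. The genes were found by their symbol in the platform annotation, which gave 1 probe set for each of the 4 genes out of 19938 named genes in the table. Kctd12b and Kctd1 were chosen by their measured difference between tumours lacking Snai2 (KO) and tumours with intact Snai2 (WT). Ranked by p, that difference is among the first in the table. Kctd12 and Kctd15 were chosen because each is the close relative of Kctd12b or Kctd1. The KO and WT levels of Kctd12b and Kctd1 are therefore a description and were not tested. By RefSeq, Kctd12b lies on chromosome X, Kctd12 on chromosome 14, Kctd1 on chromosome 18 and Kctd15 on chromosome 7.

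KCTD proteins share a BTB-type domain through which they form oligomers, and several of them act as adaptors of cullin 3 ubiquitin ligases. Kctd12 and Kctd12b, with Kctd8 and Kctd16, are auxiliary subunits of GABA-B receptors: they bind the receptor and the G protein beta-gamma dimer, and Kctd12 is known to speed the decline of the response. Kctd1 and Kctd15 are a second pair, which bind AP-2 transcription factors and restrain their activity. In humans, mutations of KCTD1 cause a developmental syndrome that affects the scalp, the ears and the nipples.

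All mice carried an ErbB2 (neu) transgene under the mouse mammary tumour virus promoter (FVB/N-Tg(MMTVneu)202Mul/J), and the KO animals carried a targeted germline Snai2 allele from the B6;129S1-Snai2tm2Grid/J line, in tumour and host cells alike. The labels do not state any backcrossing between these strains. RNA of whole tumours, called luminal and ERBB2-positive by the labels, was measured on 18 arrays. The groups were WT nulliparous with metastasis (4 arrays), WT parous with metastasis (4), KO nulliparous with metastasis (1), KO parous with metastasis (3), KO nulliparous without metastasis (3) and KO parous without metastasis (3); animal ages are not given in the sources used here. No WT group lacks metastasis, so a difference between KO tumours without metastasis and WT tumours cannot be told apart from one of metastasis.

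In the KO parous group with metastasis, the arrays of replicates 2 and 3 almost coincided. The SD of their log2 difference over 10252 genes was 0.102, the smallest of 153 array pairs, and the second smallest was 0.285. They were counted as 1 sample, so that group has n = 2 and all tests rest on 17 samples. The log2 level of Snai2 was dim in both genotypes, 6.84 ± 0.17 in the 8 WT samples and 6.54 ± 0.17 in the 9 KO samples (mean ± SD), with overlapping ranges. The position of its probes relative to the targeted region was not checked. The luminal marker Krt8 lay between 12.86 and 13.66 in KO and between 13.09 and 13.63 in WT tumours, and Erbb2 between 12.45 and 12.92 over all samples. In whole tumours, fewer cells of a type and less RNA per cell cannot be told apart.

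Kctd12b was low in every KO tumour with metastasis and in no other tumour. The KO nulliparous tumour with metastasis had a log2 level of 7.04, KO parous replicate 1 with metastasis 7.09, and arrays 2 and 3 of that group 7.12 and 7.17. The WT nulliparous tumours stood at 8.95, 8.84, 9.06 and 8.88 in replicates 1 to 4, and the WT parous tumours at 8.30, 9.03, 8.87 and 7.86. KO tumours without metastasis had 8.49, 8.74 and 9.17 in nulliparous and 8.07, 7.68 and 8.87 in parous mice. The 3 KO samples with metastasis thus lay below the lowest value of any other group. The share of all genes with such a gap was not computed, and these samples entered the choice of Kctd12b. KO tumours without metastasis spanned the WT range and went slightly below it in 1 parous tumour.

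Ordered by mean, Kctd12b was highest in WT nulliparous tumours, 8.93 ± 0.10 (SD, n = 4), followed by KO nulliparous tumours without metastasis, 8.80 ± 0.34 (SD, n = 3), WT parous tumours, 8.51 ± 0.54 (SD, n = 4), and KO parous tumours without metastasis, 8.20 ± 0.61 (SD, n = 3). Each of these neighbours overlapped the next. KO parous tumours with metastasis, at 7.12 ± 0.04 (SD, n = 2), stood 1.09 below the group before them, and the lone KO nulliparous tumour with metastasis stood at 7.04. The tumours of WT nulliparous mice and of KO mice with metastasis were tight in Kctd12b, within 0.22 and 0.11, whereas those of WT parous mice and KO parous mice without metastasis spread over 1.18 and 1.19. The KO tumours with metastasis lay below the array medians of 7.60 to 7.67, and RMA compresses the log2 values of dim genes. Whether this narrowed their spread was not tested.

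**Figure D1:**
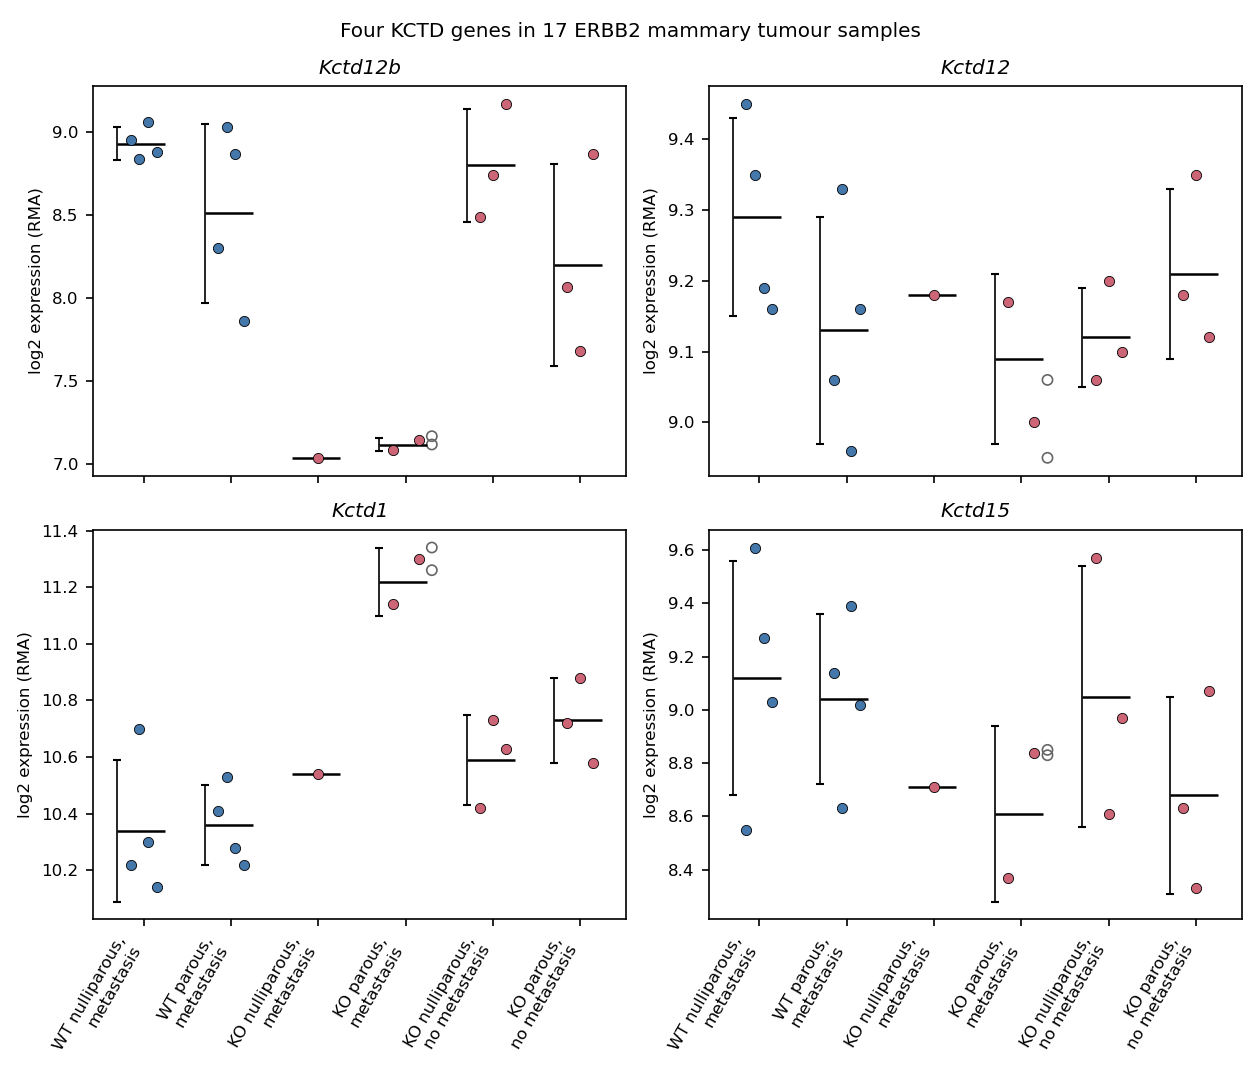
Log2 expression (y axis, RMA values, a scale per gene) of Kctd12b, Kctd12, Kctd1 and Kctd15 in each of the 6 groups (x axis); filled points are samples (blue WT, red KO), bars are group means with SD, and open circles are the near-coinciding arrays 2 and 3 of the KO parous group with metastasis, whose mean is 1 sample. Kctd12b is lowest in the KO tumours with metastasis, at 7.04 to 7.15, and Kctd1 is highest in the KO parous tumours with metastasis, at 11.14 to 11.30.

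In the fit with genotype, parity and metastasis as terms, Kctd12b stood at a log2 difference of -1.57 (SE 0.26) in KO minus WT, a 2.96-fold lower level. Because no WT group lacked metastasis, the genotype term of this fit sets the 3 KO samples with metastasis against WT tumours. Over all samples the mean of Kctd12b was 8.03 in KO (n = 9) and 8.72 in WT tumours (n = 8). By p in this fit Kctd12b ranked first of all genes, ahead of Ppp3cc, a calcineurin subunit, at 0.58 (SE 0.11). With only parous mice with metastasis it was -1.40 (SE 0.33) and Kctd12b ranked at place 30, between Hoxa7 at -0.76 (SE 0.18) and Morf4l2 at 0.47 (SE 0.11). These values chose the gene and are given without a test. The metastasis term of the same fit was -1.34 (SE 0.27). It compares KO tumours with and without metastasis only, since no WT tumour lacked metastasis. Among KO parous tumours alone the difference was -1.09 (SE 0.35). Since the same KO tumours with metastasis enter the KO and WT difference, these values also describe the choice. Between KO tumours without metastasis and WT tumours, Kctd12b differed by -0.13 (SE 0.29) in nulliparous mice and by -0.31 (SE 0.29) in parous mice, with overlapping groups both times. With 1 tumour left out the first of these reached 0.02 (without KO nulliparous replicate 1), and the second ran from -0.64 (without KO parous replicate 3) to -0.05 (without KO parous replicate 2).

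Kctd12, the close relative of Kctd12b, had nearly the same level in all groups. Its samples lay between 8.96 and 9.45, and its group means between 9.09 ± 0.12 (SD, n = 2) in KO parous tumours with metastasis and 9.29 ± 0.14 (SD, n = 4) in WT nulliparous tumours. In WT nulliparous replicates 1 to 4 it stood at 9.45, 9.35, 9.19 and 9.16, in WT parous replicates at 9.06, 9.33, 8.96 and 9.16, and in the KO nulliparous tumour with metastasis at 9.18. KO parous replicates with metastasis gave 9.17, 9.06 and 8.95, and KO tumours without metastasis 9.06, 9.20 and 9.10 in nulliparous and 9.18, 9.35 and 9.12 in parous mice. Every group overlapped the next in the order of means.

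Kctd12 was not chosen for a difference between KO and WT, and was tested. In the fit with 3 terms its KO minus WT difference was -0.08 (SE 0.09, 95% interval -0.28 to 0.12, limma adjusted p = 0.999), and among parous mice with metastasis -0.04 (SE 0.11, 95% interval -0.28 to 0.20, adjusted p = 0.993). The metastasis difference was -0.04 (SE 0.10, adjusted p = 0.999) with 3 terms and -0.13 (SE 0.12, adjusted p = 0.967) among KO parous tumours.

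Kctd1 was highest in KO parous tumours with metastasis. The arrays of that group gave 11.14, 11.34 and 11.26 for replicates 1 to 3, while the KO nulliparous tumour with metastasis stood at 10.54. KO parous tumours without metastasis had 10.72, 10.88 and 10.58, and KO nulliparous tumours without metastasis 10.42, 10.73 and 10.63. WT parous replicates 1 to 4 had 10.41, 10.53, 10.28 and 10.22, and WT nulliparous replicates 10.22, 10.70, 10.30 and 10.14. The KO parous tumours with metastasis lay above every other sample. The share of all genes that set this group apart from all others was not computed, and its samples entered the choice of Kctd1. The remaining KO tumours overlapped the upper part of the WT range.

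By mean, Kctd1 ran from 11.22 ± 0.12 (SD, n = 2) in KO parous tumours with metastasis to 10.73 ± 0.15 (SD, n = 3) in KO parous tumours without, 10.59 ± 0.16 (SD, n = 3) in KO nulliparous tumours without and 10.54 in the single KO nulliparous tumour with metastasis. The WT groups followed, the parous at 10.36 ± 0.14 and the nulliparous at 10.34 ± 0.25 (SD, n = 4 each). The first group stood apart from the next by 0.49, the other KO groups overlapped in sequence, and the WT groups overlapped each other.

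The KO minus WT difference of Kctd1 was 0.86 (SE 0.15), or 1.82-fold, among parous mice with metastasis, where it ranked second by p between Hsf2bp at 1.33 (SE 0.22) and Sectm1a at 2.52 (SE 0.45). With 3 terms it was 0.61 (SE 0.14) at place 7, after the zinc transporter Slc39a14 at 1.11 (SE 0.25) and before Clip2 at -0.56 (SE 0.13). That value depended on the single KO nulliparous tumour with metastasis, without which it was 0.84. The groups of Kctd12b and Kctd1 did not overlap between KO and WT among parous mice with metastasis, as was the case for 17.9% of all genes in that comparison. In KO minus WT tumours where the KO mice lacked metastasis, Kctd1 differed by 0.37 (SE 0.13) in parous mice, with groups apart by a narrow margin (5.84% of all genes did not overlap there), and by 0.25 (SE 0.13) in nulliparous mice, with overlap. KO parous tumours with metastasis were 0.49 (SE 0.16) above those without, again with no overlap for Kctd1 or Kctd12b, against 14.4% of all genes. None of these values of Kctd1 was tested, since the contrast or its samples chose the gene.

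Kctd15, the relative of Kctd1, varied within groups more than between them. WT nulliparous replicates 1 to 4 stood at 8.55, 9.61, 9.27 and 9.03, and WT parous replicates at 9.14, 8.63, 9.39 and 9.02. The KO nulliparous tumour with metastasis had 8.71, KO parous replicates 1 to 3 with metastasis 8.37, 8.83 and 8.85, KO nulliparous tumours without metastasis 9.57, 8.61 and 8.97, and KO parous tumours without metastasis 8.63, 8.33 and 9.07. All groups overlapped, with means from 8.61 ± 0.33 (SD, n = 2) in KO parous tumours with metastasis to 9.12 ± 0.44 (SD, n = 4) in WT nulliparous tumours.

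The KO minus WT difference of Kctd15 was -0.41 (SE 0.24, 95% interval -0.92 to 0.10, limma adjusted p = 0.999) with 3 terms and -0.44 (SE 0.32, 95% interval -1.13 to 0.25, adjusted p = 0.937) among parous mice with metastasis. Its point estimate had the sign opposite to that of Kctd1, and the intervals reach both sides of 0. Between tumours with and without metastasis of KO parous mice it differed by -0.07 (SE 0.34, adjusted p = 0.996). Over all 19938 genes, 0.0% passed by limma in either KO minus WT comparison with metastasis held or adjusted for (0 genes each), with 885 and 1142 at an unadjusted p under 0.05. In the metastasis comparisons 0.0% passed too, with 999 genes at an unadjusted p under 0.05 with 3 terms and 805 among KO parous tumours.

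The share of calls was also low where KO tumours without metastasis were set against WT tumours. Among nulliparous mice 0.246% of genes passed (49, but 0 without WT nulliparous replicate 1 or 4 and 179 without replicate 2), and among parous mice 0.0%, where 1149 had an unadjusted p under 0.05. Kctd12 differed by -0.17 (SE 0.10, adjusted p = 0.529) in the first and 0.09 (SE 0.10, adjusted p = 0.928) in the second, and Kctd15 by -0.07 (SE 0.28, adjusted p = 0.96) and -0.37 (SE 0.28, adjusted p = 0.899). Neither gene passed in either comparison.

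**Figure D2:**
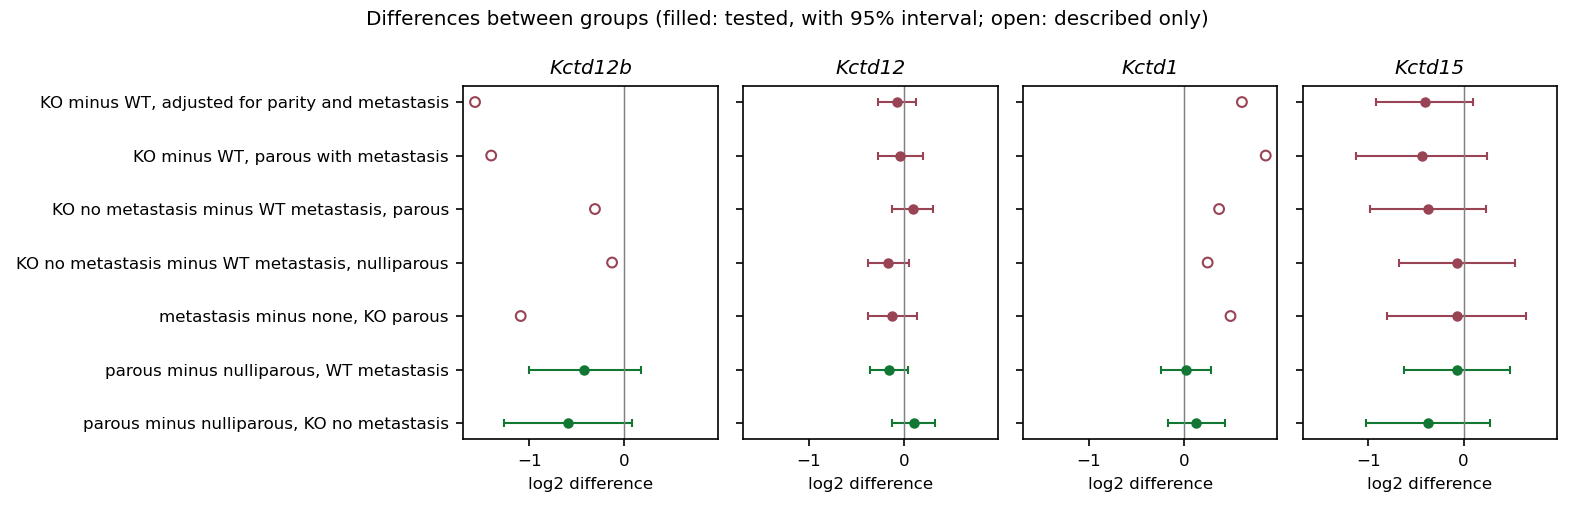
Log2 differences (x axis) of the 4 genes in 7 comparisons (y axis); filled points are tested values with 95% intervals, and open points are values that chose the genes or share their samples, shown without an interval. Open points of Kctd12b reach -1.57 and those of Kctd1 0.86, while the intervals drawn for Kctd12, for Kctd15 and for parity within each genotype (green) include 0.

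Parity did not enter the choice of the genes and was tested for all 4. In WT mice with metastasis, 0 of the 4 genes passed between parous and nulliparous tumours, in a comparison where limma called 2.4% of all genes (478, but 57 without WT nulliparous replicate 4 and 770 without KO parous replicate 2 of the mice without metastasis). Kctd12b differed by -0.42 (SE 0.27, 95% interval -1.0 to 0.17, adjusted p = 0.502), Kctd12 by -0.16 (SE 0.09, adjusted p = 0.439), Kctd1 by 0.02 (SE 0.12, 95% interval -0.24 to 0.28, adjusted p = 0.964) and Kctd15 by -0.07 (SE 0.26, adjusted p = 0.938). WT parous replicates 1 and 4 lay below all nulliparous tumours in Kctd12b, and replicates 2 and 3 lay among them.

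In KO mice without metastasis the parous minus nulliparous difference of Kctd12b was -0.59 (SE 0.31, 95% interval -1.27 to 0.08, limma adjusted p = 1 after rounding). For Kctd12, Kctd1 and Kctd15 it was 0.10 (SE 0.11), 0.13 (SE 0.14) and -0.37 (SE 0.30), with the same adjusted p. The share of all genes called here was 0.0%, with 655 at an unadjusted p under 0.05. The mean of Kctd12b was lower in parous than in nulliparous mice in WT tumours and in KO tumours without metastasis, and not in KO tumours with metastasis (7.12 against 7.04 in the single nulliparous tumour). With 3 terms over all 17 samples the difference was -0.40 (SE 0.18, 95% interval -0.79 to -0.01, unadjusted p = 0.0459, adjusted p = 0.381 by limma). The unadjusted interval excludes 0, and the difference did not pass after adjustment over all genes. By the same fit Kctd12 differed by -0.06 (SE 0.07, adjusted p = 0.796), Kctd1 by 0.17 (SE 0.10, adjusted p = 0.518) and Kctd15 by -0.18 (SE 0.17, adjusted p = 0.724). No gene of the table passed there (0.0%), and 2538 had an unadjusted p under 0.05.

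The KO parity contrast minus the WT parity contrast was tested too, although KO mice there lacked metastasis and WT mice had it. It was -0.18 (SE 0.41, adjusted p = 0.921) for Kctd12b, 0.25 (SE 0.14, adjusted p = 0.584) for Kctd12, 0.11 (SE 0.18, adjusted p = 0.876) for Kctd1 and -0.30 (SE 0.40, adjusted p = 0.845) for Kctd15. Limma called 0.0% of all genes, with 1922 at an unadjusted p under 0.05.

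Of the wider KCTD family, 23 of 25 listed genes were measured. Without Kctd12b and Kctd1, which the KO and WT difference chose, 21 remained and 0 of them passed in any of the 10 comparisons. In KO minus WT with 3 terms, 12 of these 21 lay below 0 (57.1%), with a median of -0.02, against 62.0% of all genes and a median of -0.03. Of the 21, the lowest was Kctd15 and the highest Kctd9 at 0.24 (SE 0.17, adjusted p = 0.999). Kctd17 stood at -0.39 (SE 0.29, adjusted p = 0.999). The other GABA-B subunits of the family, Kctd8 and Kctd16, stood at 0.00 (SE 0.10) and 0.05 (SE 0.08), with levels of 6.89 to 7.36 and 6.46 to 6.80 over all samples. Kctd5 and Kctd17, which are close relatives of each other, ranged from 9.20 to 9.97 and from 8.47 to 10.03.

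All 20 listed genes of the GABA-B receptor, its G proteins and channels were measured, and of the 19 other than Kctd12b 0 passed in any comparison. With 3 terms 15 of the 19 lay below 0 in KO minus WT (median -0.08), against 62.0% of all genes (median -0.03). Gabbr1, the subunit that binds GABA, stood at -0.78 (SE 0.33, adjusted p = 0.999) with 3 terms and at -1.16 (SE 0.42, adjusted p = 0.825) among parous mice with metastasis. Its arrays in KO parous tumours with metastasis lay between 7.75 and 8.70, against 8.89 or more in every WT parous tumour, so these groups did not overlap, as for 17.9% of all genes there, and the KO nulliparous tumour with metastasis had 9.03 and lay within the WT range. Gabbr2, which couples to the G protein and carries the KCTD binding site, differed by -0.05 (SE 0.10, adjusted p = 1 after rounding). The G protein alpha subunit gene Gnao1 stood at 0.71 (SE 0.45, adjusted p = 0.999) and App, whose product binds Gabbr1, at -0.18 (SE 0.10, adjusted p = 0.999).

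**Figure D3:**
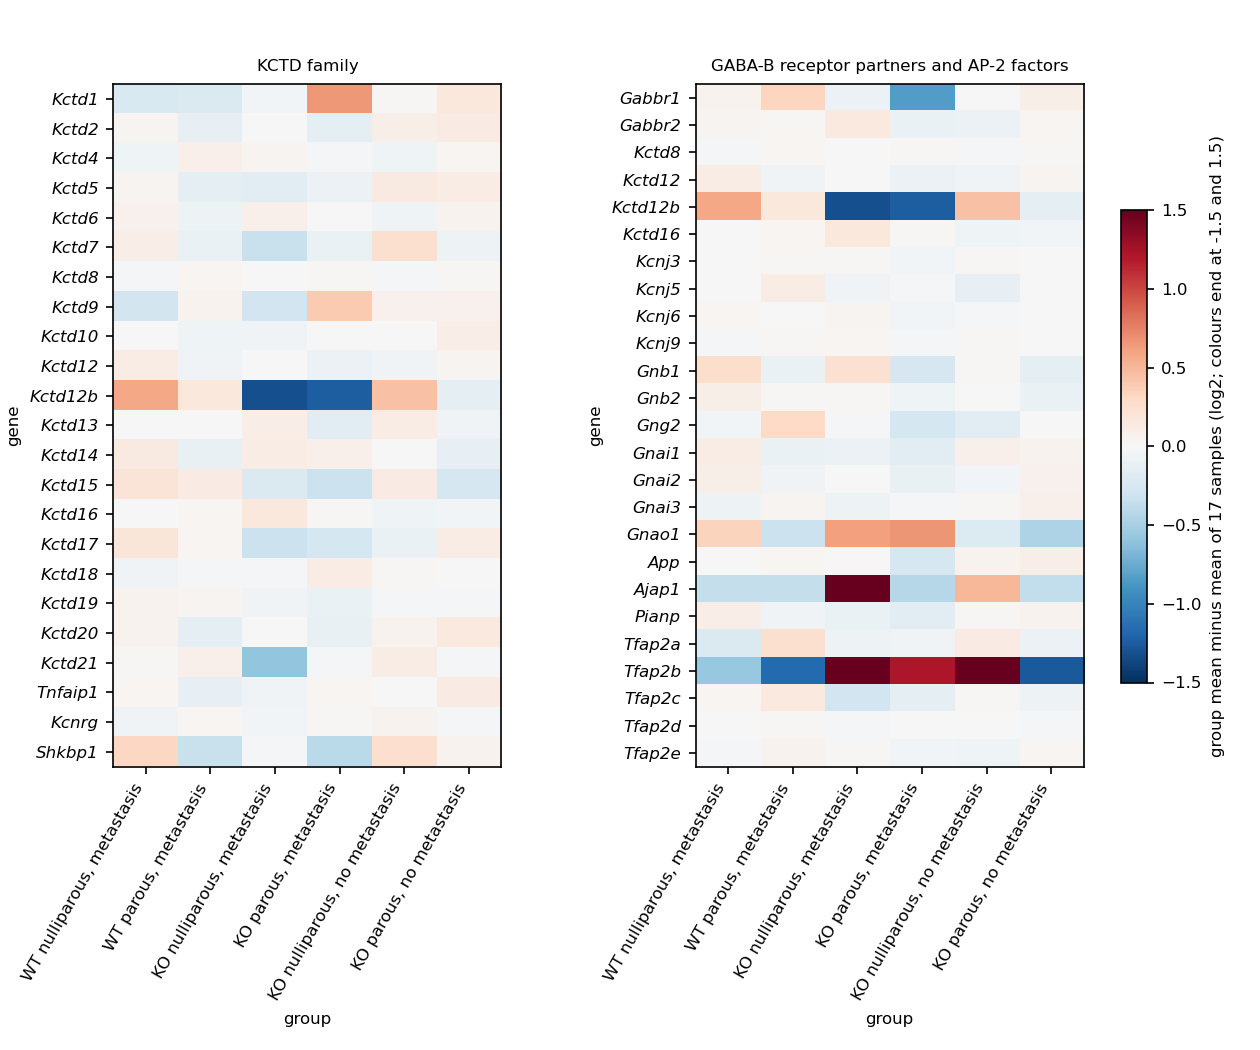
Colour shows each group's mean minus the mean of the 17 samples (log2; colours end at -1.5 and 1.5) for measured KCTD genes (left) and for GABA-B receptor partners and AP-2 factors (right), with genes on the y axis and the 6 groups on the x axis. Kctd12b is the KCTD gene furthest from white in the KO groups with metastasis, while Kctd8, Kctd12 and Kctd16 stay near white.

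AP-2 factors are the partners of Kctd1 and Kctd15, and 0 of 5 measured AP-2 genes passed in any comparison. In KO minus WT with 3 terms, Tfap2a stood at -0.10 (SE 0.20, adjusted p = 1 after rounding) and Tfap2c at -0.28 (SE 0.12, adjusted p = 0.999). Of the 5 genes 4 lay below 0, against 62.0% of all genes, and Tfap2b was highest at 2.97 (SE 1.05, adjusted p = 0.999). Of the cullin 3 ligase core 4 of 5 genes were measured and 0 passed: Nedd8, the modifier that activates cullins, stood at 0.26 (SE 0.15, adjusted p = 0.999) and Cul3 at 0.06 (SE 0.06, adjusted p = 0.999). KCTD1 is reported to restrain Wnt signalling in human cells. Of the Wnt target genes 10 of 11 were measured and 0 passed. With 3 terms 9 of 10 lay below 0 in KO minus WT (median -0.10), against 62.0% of all genes (median -0.03). The lowest were Rnf43 at -0.33 (SE 0.16) and Znrf3 at -0.27 (SE 0.12), both with adjusted p = 0.999. Among parous mice with metastasis 8 of 10 lay below 0 (58.4% of all genes), and Lef1 was highest at 0.46. In KO nulliparous tumours without metastasis minus WT 4 of 10 did (53.4% of all genes). A link of these genes to the level of Kctd1 was not tested.

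Marker lists of other cell types were compared beside Kctd12b. All 19 endothelial markers were measured, and 18 lay below 0 in KO minus WT with 3 terms (median -0.33) and 18 in KO parous tumours with minus without metastasis (median -0.31), against 62.0% and 61.1% of all genes (median -0.03 in each), while 0 passed in either. In KO nulliparous tumours without metastasis minus WT, where Kctd12b differed by -0.13, all 19 lay below 0 too (median -0.25, against 53.4% of all genes). The mean of the list was between 8.29 and 8.31 in KO tumours with metastasis, between 8.24 and 9.06 in WT tumours, and between 8.33 and 9.22 in KO tumours without metastasis. The 10 skeletal muscle markers had a mean of 7.41 to 7.60 in KO tumours with metastasis, 7.33 to 10.96 in WT and 7.68 to 9.44 in KO tumours without metastasis. All 10 muscle markers lay below 0 in KO parous tumours with minus without metastasis (median -1.09), as did all 10 fibroblast (median -0.37) and all 10 T and NK cell markers (median -0.16). Most markers of several other lists lay below 0 there too. These were 10 of 12 luminal, 7 of 8 basal, 7 of 8 neutrophil and 7 of 10 macrophage markers, against 61.1% of all genes. Of the adipocyte markers 5 of 9 did. The fibroblast list stood at 9.13 to 9.44 in KO tumours with metastasis and 7.89 to 10.33 in WT tumours, and the T and NK cell list at 6.11 to 6.75 and 6.28 to 7.73. The B and plasma cell list was highest of all samples in the KO nulliparous tumour with metastasis, at 7.66, against at most 6.92 in WT tumours. Over the 17 samples Kctd12b had a Pearson r of 0.32 with the endothelial and 0.39 with the muscle list, and after group means were taken off -0.18 and 0.30. Among the cell type lists its r furthest from 0 was -0.46 with the neutrophil list, and -0.40 after group means were taken off. The part of these cell types in the level of Kctd12b was not tested.

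Kctd12 followed several marker lists from tumour to tumour, most closely those of fibroblasts and endothelium. With the basal and skeletal muscle lists its Pearson r was 0.58 and 0.57 over 17 samples, and 0.55 and 0.52 after group means were taken off. Its Pearson r over 17 samples was 0.77 with the mean of the 10 fibroblast markers, 0.76 with that of the endothelial markers, 0.67 with adipocyte and 0.66 with macrophage markers, and after group means were taken off 0.82, 0.73, 0.61 and 0.55. The genes most like it were Tshz2 (r = 0.91), Sgce (0.88) and Fgf2 (0.88), with 0.90, 0.87 and 0.87 after group means were taken off. Samples share an array scale and no p was computed for likeness between genes. Kctd12b and Kctd12, though close relatives, had an r of 0.17, and after group means were taken off -0.16.

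The genes most like Kctd12b were Tmem150a (r = 0.85), Ano8 (0.78) and Eef1akmt3 (0.77), and within groups these fell to 0.60, 0.54 and 0.41. Tmem150a had group means of 8.65 and 8.58 in KO nulliparous and parous tumours with metastasis and between 9.01 and 9.08 in the other groups. For Kctd1 they were Septin2 (0.87), Slc39a14 (0.86) and Tpp2 (0.86), with 0.66, 0.57 and 0.78 within groups. Slc39a14 had its highest group mean, 12.00, in KO parous tumours with metastasis, as Kctd1 did, and its lowest, 10.51, in WT nulliparous tumours. Between Kctd12b and Kctd1 r was -0.60 over 17 samples and 0.00 within groups.

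Kctd15 was most like Dpy19l3 (r = 0.88), Inppl1 (0.81) and Nxnl2 (0.80), with 0.84, 0.81 and 0.81 within groups. Dpy19l3 and Inppl1 lie on chromosome 7 with Kctd15, Dpy19l3 at a distance of 17 tested genes and Inppl1 far off, at 511. Of the 5 tested genes on each side of Kctd15, 7 of 10 had an r of at least 0.5 with it, the highest being Pepd (0.80), which encodes a dipeptidase, and Lsm14a (0.72), which encodes an RNA-binding protein. The share of all genes with an r of at least 0.5 was not computed for any KCTD gene here. All 10 neighbours of Kctd15 lay below 0 in KO minus WT with 3 terms, against 62.0% of all genes. They ran from -1.82 in Scgb1b27 to -0.06 in Pdcd2l, and 0 passed.

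Of the 10 tested neighbours of Kctd12b, 8 were dim, with mean log2 levels of 4.66 to 6.17, where RMA compresses differences. The 10 neighbours on chromosome X had KO minus WT differences of -0.14 to 0.11 with 3 terms and of -0.17 to 0.00 among parous mice with metastasis, and 0 of 10 had an r of at least 0.5 with it. The neighbours of Kctd1 on chromosome 18 ran from -0.12 to 0.28 with 3 terms. The highest was Taf4b, a subunit of the general transcription factor TFIID, with an r of 0.58 with Kctd1. Of the neighbours of Kctd12 on chromosome 14, Ednrb, an endothelin receptor, had an r of 0.71 with it and a KO minus WT difference of -0.58, while the others lay between -0.24 and 0.23. None of these 40 neighbours passed in any comparison.

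**Figure D4:**
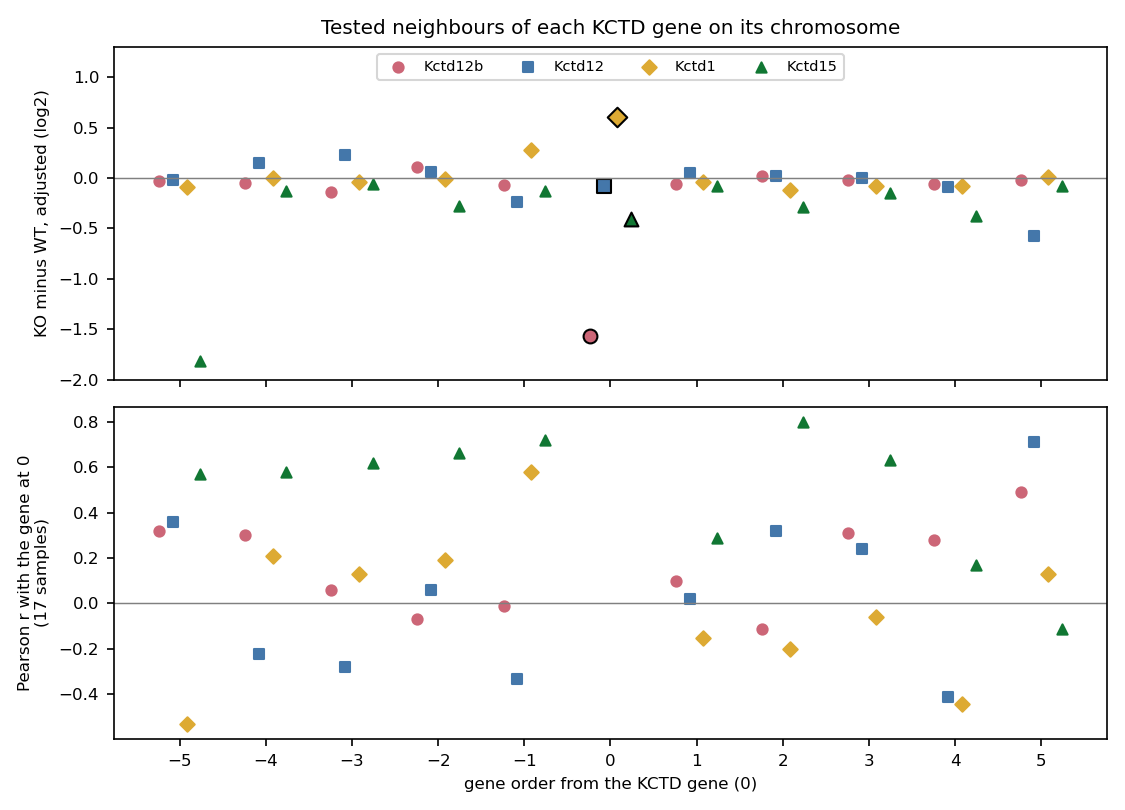
Upper plot: KO minus WT log2 difference in the fit with genotype, parity and metastasis (y axis) for the 5 tested genes on each side of each KCTD gene in RefSeq gene order (x axis, the KCTD gene at 0, outlined). Lower plot: Pearson r over 17 samples of each neighbour with that KCTD gene. Neighbours of Kctd15 reach 0.80 and 7 of 10 are at 0.5 or above, while those of Kctd12b stay under 0.50. The share of all genes at 0.5 or above was not computed.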

How the data were processed

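Log2 expression of 35556 probe sets on 18 one-colour arrays was taken from the authors' deposited table, made with RMA and the oligo package per the submitters' processing notes. Their versions are not stated there. RMA corrects background, applies quantile normalization and summarises probes, so the log2 values of dim genes are compressed. Array medians lay between 7.60 and 7.67. Precision is limited by how many arrays there are.

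Of the probe sets, 21789 had 1 gene, 1621 several and 12146 none in the platform annotation; only those with 1 gene were used. Of several probe sets of a gene, that of highest mean stood for it (19938 genes). Names were matched by Entrez identifier to RefSeq genes of GRCm38.p6 (19855 genes), used for names, chromosomes and gene order only. Probe sequences were not used here, so cross-reading between relatives was not checked.

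Tests used limma 3.58.1 under R 4.3.3, with moderated 2-sided tests (lmFit, eBayes) and Benjamini-Hochberg adjustment over all genes at a threshold of 0.05: a fit of 6 group means, and a fit of 3 terms (genotype, parity, metastasis). Fits were tested on simulated data. Members and gene lists were chosen with earlier results of these data known, and so was the averaging of the near-identical pair. Of 179 list entries 173 were measured. Named genes are the 4 genes, list members that pass or else the extremes of each list, the 3 genes most like each member (predicted genes left out), 5 neighbours a side and those next in rank; Kctd5, Kctd8, Kctd16, Gabbr2, Cul3, App, Tfap2a, Krt8, Erbb2 and Snai2 fall outside it and were named for their role after their values were seen. Alternatives were other scalings, filters, fits and leaving out each sample. The labels call arrays biological replicates.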

Additional observations from a re-analysis of the deposited data

How the results depend on the processing

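Of the 28 tested values of the 4 genes, 0 passed by limma, and 0 of their 692 values under the alternatives did (smallest adjusted p 0.217). Kctd12b stayed between -1.68 and -1.36 in KO minus WT with 3 terms, and between -1.62 and -1.22 among parous mice with metastasis, with 1 sample left out. Kctd1 ran from 0.49 to 0.84 in KO minus WT with 3 terms. Its metastasis difference in the same fit, 0.30 (SE 0.14), ran from 0.18 to 0.53. The higher ends came without the KO nulliparous tumour with metastasis. Values near 0 changed sign with 1 sample left out, which leaves fewer samples: Kctd12 among parous mice with metastasis (-0.13 to 0.04) and for metastasis with 3 terms (-0.08 to 0.01, and 0.02 after quantile normalization again and 0.02 with arrays centred on their medians); Kctd12b (-0.32 to 0.02) and Kctd15 (-0.33 to 0.15) between KO nulliparous tumours without metastasis and WT; Kctd1 (-0.05 to 0.14) and Kctd15 (-0.26 to 0.09) for parity in WT; Kctd12b (-0.51 to 0.09) and Kctd1 (-0.01 to 0.19) for the difference of parity contrasts; and Kctd15 for metastasis in KO parous tumours (-0.30 to 0.17, and 0.01 with both arrays of the pair kept apart). Counts of genes called were less stable. For parity in WT 478 became 878 with only those groups fitted and 57 to 770 with 1 sample left out; its split of 108 higher and 370 lower became 152 and 275 after quantile normalization again. For KO nulliparous tumours without metastasis against WT, 49 became 128 with the pair kept apart, 1 with only those groups fitted and 0 to 179 with 1 sample left out. With 3 terms 0 became 55 for parity and 2 for metastasis with the pair kept apart, and 0 to 369 and 0 to 1 with 1 sample left out. The other counts of 0 reached 17 (KO minus WT, parous with metastasis), 2 (KO parous without metastasis against WT), 2 (parity in KO), 8 (difference of parity contrasts) and 5 (metastasis in KO parous tumours), from 0, with 1 sample left out. The cause was not tested. Replicate numbers were not treated as pairs in the main fits. Correlations of same-numbered deviations from group means lay between -0.31 and 0.43. The highest, 0.35, 0.42 and 0.43, were those between replicates 2 of the parous groups. Differently numbered samples were not compared, so whether the numbers pair samples is not known. With the replicate block the counts were 239 for parity in WT and 0 for KO nulliparous without metastasis against WT, and Kctd15 for metastasis in KO parous tumours was 0.13. The block changed no call of the 4 genes. The table has no detection calls, so which dim genes exceed background is not known here.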

Other observations

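Tfap2b, an AP-2 factor and so a candidate partner of Kctd1 and Kctd15, was high in some tumours and near 6 in the others. It stood at 10.90 in KO parous replicate 1 with metastasis, 10.34 in the KO nulliparous tumour with metastasis, 10.61 and 10.37 in replicates 2 and 3 of the KO nulliparous tumours without metastasis, and 8.60 in WT nulliparous replicate 2. All other arrays lay between 5.92 and 6.16. Its KO minus WT difference with 3 terms was 2.97 (SE 1.05), with a limma adjusted p of 0.999. Within KO parous tumours with metastasis it was at 10.90, 6.15 and 5.92, while Kctd1 in the same arrays was at 11.14, 11.34 and 11.26.

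Ajap1, whose product binds the GABA-B receptor subunit Gabbr1, was at 10.56 in the KO nulliparous tumour with metastasis and at 9.74 in replicate 3 of the KO nulliparous tumours without metastasis, and between 6.65 and 6.99 on all other arrays. Both tumours were among those with high Tfap2b. The difference between KO and WT with 3 terms was 1.34 (SE 0.65, limma adjusted p = 0.999). Gnao1 varied widely in most groups, from 8.31 to 10.56 over the samples. It lay within 10.24 and 10.43 on the 4 arrays of KO tumours with metastasis, which count as 3 samples. WT nulliparous replicate 4, at 10.27, and WT parous replicate 2, at 10.36, lay in the same range.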
